A study of Mus musculus with 18 samples.

Results

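Among the 114425 isoforms counted by long-read sequencing in primary mouse brain cultures and their small extracellular vesicles (sEVs), 584 were classed as antisense and 947 as intergenic by the deposited table. These 1531 isoforms were chosen by that structural category alone, and both categories are reported apart. The antisense isoforms fell under 412 locus labels, each naming the gene on the opposite strand, and held 18604 reads, or 0.182% of all reads. The intergenic isoforms fell under 816 numbered labels and held 9353 reads, or 0.0914%.

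The study sequenced full-length cDNA on the PacBio platform from sEVs of primary astrocyte, microglia and neuron cultures and from the cells that released them. There were 6 groups (astrocyte sEVs and astrocyte cells, microglia sEVs and microglia cells, neuron sEVs and neuron cells) with 3 libraries each. The labels give brain as the tissue and name no strain, age, genotype or treatment for any group. All libraries were made from polyadenylated RNA with a low-input kit and 10 cycles of reamplification, and the sEV libraries and the cell libraries were sequenced as separate pools on 2 SMRT cells each. In every comparison of sEVs with cells the fraction and the pool thus cannot be told apart. The labels do not say whether replicates came from separate cultures, so each p-value measures the spread among these libraries, which may be technical.

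An antisense transcript is read from the strand opposite to an annotated gene. Some such transcripts pair with the sense RNA, alter transcription of the locus or are by-products of nearby promoters, and many are made at low levels. An intergenic transcript lies outside every annotated gene, and may come from an unannotated non-coding RNA gene, an enhancer or a transposable element. Small extracellular vesicles are membrane particles released by cells, and in the brain they carry RNA and protein between neurons and glia.

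Library totals ran from 434298 to 683381 reads. Summed over 8 astrocyte markers the level was 11730 to 23813 RPM (reads scaled to a library total of 1e+06) in astrocyte sEVs and 22868 to 25837 RPM in astrocyte cells. The 8 microglia markers summed to 1574 to 4520 RPM in microglia sEVs and 5404 to 9089 RPM in microglia cells, although Itgam was at 0 in microglia sEVs and Cx3cr1 at 0 in microglia cells. The 8 neuron markers summed to 1317 to 1929 RPM in neuron sEVs and 4557 to 5505 RPM in neuron cells, while the astrocyte list summed to 2715 to 3752 RPM in neuron sEVs and 2914 to 3239 RPM in neuron cells. Each culture thus carried its own marker list, but in neuron sEVs the astrocyte list was the higher of both. The astrocyte libraries also carried the oligodendrocyte lineage list, at 1950 to 3067 RPM in sEVs and 4198 to 9084 RPM in cells. The part of these other cell types in the results was not tested.

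How often a locus recurs is the first property of both categories. All 947 intergenic isoforms had reads in exactly 1 of the 18 libraries. Of the 584 antisense isoforms 486 (83.2%) occurred in 1 library, against 64.5% of the isoforms of all categories. The 2 categories differed in how many reads these isoforms held. Isoforms of 1 library carried 16.7% of the antisense reads and 100% of the intergenic reads, against 4.93% of the reads of all categories. The intergenic 100% cannot be read as a lack of recurrence, since isoforms under a shared label number were listed separately for each library. The small genic category was the other one with all its isoforms (34 of 34) in 1 library. No isoform had a value of 1 (the lowest above 0 was 2), so single reads can be hidden in a 0. The reads have no molecular identifiers, and all intervals and floors cover counting error alone. The floor of 3 reads used for a 0 makes no allowance for single reads hidden in it. Fold differences given as at least a value can therefore be too high.

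**Figure D1:**
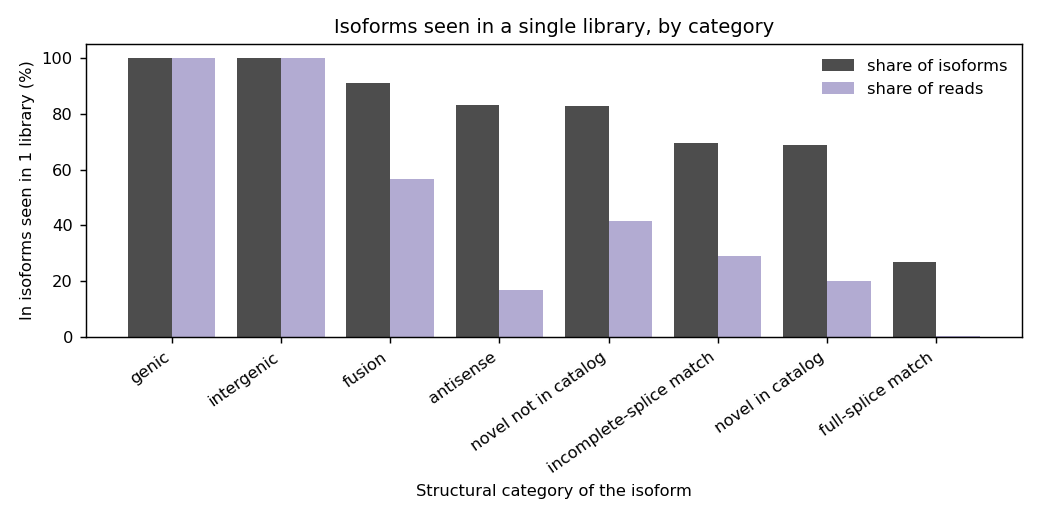
Share of isoforms (dark bars) and share of reads (light bars), in percent, that belong to isoforms with reads in 1 of 18 libraries, for each of the 8 structural categories. Intergenic and genic isoforms stand at 100% on both measures, whereas antisense isoforms stand at 83.2% of isoforms and 16.7% of reads. Recurrence of intergenic loci cannot be read from these shares.

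The intergenic labels are numbers, and 114 of the 816 labels appeared in 2 or more libraries. In every such case each library had an isoform of its own under the shared number, with at most 4 libraries to a label, and no label had 2 isoforms in the same library. The isoform identifiers of each library formed a block that overlapped no other library's block. The highest label number in a library ran from 281 in microglia sEV replicate 1 to 7447 in neuron cell replicate 3. Whether the same number in 2 libraries stands for the same genomic region is not given in the sources used here. Recurrence of intergenic loci can therefore not be read from this table, and each intergenic isoform is described within its own library.

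Antisense labels carry the symbol of the opposite gene and can be followed across libraries. A label can pool different transcripts, so a locus seen in 2 libraries need not be the same transcript in both. Only 98 of the 584 antisense isoforms had reads in 2 or more libraries. Of the 412 loci 305 (74.0%) had reads in 1 library, 107 in 2 or more and 13 in 6 or more. The median locus held 3 reads, and 238 loci held 2 or 3 reads in all. Reads occurred in sEVs alone for 236 loci, in cells alone for 117, and in both for 59 (57.3%, 28.4% and 14.3%). For the 16486 labels outside both categories these shares were 10.4%, 15.4% and 74.2%, but their median was 76 reads, and the part of read number in this gap was not tested. Of the 107 loci in 2 or more libraries 63 were seen in 1 cell type alone, namely 20 in astrocyte, 28 in microglia and 15 in neuron libraries, and 4 were seen in all 3 cell types. One cell type alone thus held 58.9% of them, against 12.5% of the other labels in 2 or more libraries. With so few reads for most loci, absence from a group could not be told apart from a low level at this depth.

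Microglia libraries shared more of their antisense loci with each other than the other groups did. In microglia sEVs 12 of 88 loci (13.6%) had reads in all 3 libraries, and in microglia cells 6 of 38 (15.8%). The corresponding counts were 4 of 123 (3.25%) in astrocyte sEVs and 2 of 79 (2.53%) in astrocyte cells, and 4 of 118 (3.39%) in neuron sEVs and 3 of 76 (3.95%) in neuron cells. All 6 groups lay far below the labels outside both categories, of which 49.9% to 64.1% of those detected in a group were present in its 3 libraries. These shares were not tested against each other. Single isoforms with reads in all 3 libraries numbered 9 in microglia sEVs and 9 in microglia cells. There were 1 in astrocyte sEVs and 2 in astrocyte cells, and 3 in neuron sEVs and 2 in neuron cells. Loci present in all 3 libraries held 92.8% of the antisense reads of microglia sEVs and 80.1% of those of microglia cells, against 6.51% in astrocyte sEVs and 19.5% in astrocyte cells, and 20.9% in neuron sEVs and 18.2% in neuron cells.

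Antisense loci of sEVs and of their source cells overlapped in part. In microglia 25 loci were found in both fractions, which is 28.4% of the sEV loci and 65.8% of the cell loci. In astrocytes 23 loci were shared, or 18.7% of the sEV loci and 29.1% of the cell loci. In neurons 14 were shared, or 11.9% of the sEV loci and 18.4% of the cell loci. For the other labels, which hold more reads, the overlap was 83.8% to 86.03% of those in sEVs and 77.3% to 82.3% of those in cells.

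Comparing sEVs with their source cells asks whether vesicles hold more or less of these unannotated transcripts. Antisense reads took a larger share of the sEV libraries than of the cell libraries in astrocytes and microglia, with no overlap between the libraries of either pair. Microglia sEVs had 2372, 21500 and 3198 RPM of antisense reads, against 313, 328 and 380 RPM in microglia cells. Astrocyte sEVs had 468, 812 and 2650 RPM, against 170, 181 and 137 RPM in astrocyte cells. Neuron sEVs had 282, 172 and 596 RPM, against 113, 153 and 258 RPM in neuron cells, and these groups overlapped. As in any bulk library, more molecules of a kind and fewer of all others cannot be told apart in such shares.

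The group means of antisense reads were 9023 ± 10813 RPM in microglia sEVs and 340 ± 35.4 RPM in microglia cells (SD, n = 3 each). They were 1310 ± 1173 RPM in astrocyte sEVs and 163 ± 22.9 RPM in astrocyte cells, and 350 ± 220 RPM in neuron sEVs and 174 ± 74.8 RPM in neuron cells. In each cell type the SD of the sEV libraries exceeded that of the cell libraries. Averaged over the 3 cell types, sEVs were higher than cells by 3335 RPM (exact two-sided permutation test with labels permuted within each cell type, p = 0.0005, adjusted p = 0.0025 over the 10 tests of this kind). Within a cell type 3 libraries against 3 cannot go below p = 0.1, and the exact permutation p was 0.1 in microglia, 0.1 in astrocytes and 0.2 in neurons. Without the Cep85 antisense locus the mean difference was 860 RPM (exact permutation p = 0.0005). Without 1 of the microglia cell libraries it was 3331 to 3342 RPM with an exact permutation p of 0.18 to 0.1845. Without microglia sEV replicate 2 it was 1256 RPM, and the difference in microglia alone was 2445 RPM. Without replicate 3 of the sEVs the difference was 477 RPM in astrocytes and 52.3 RPM in neurons.

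Intergenic reads were also higher in sEVs, but through few isoforms. Astrocyte sEVs had 2124, 416 and 2428 RPM of intergenic reads, against 301, 285 and 276 RPM in astrocyte cells. Microglia sEVs had 488, 529 and 664 RPM, against 175, 272 and 297 RPM in microglia cells. Neuron sEVs had 427, 336 and 5631 RPM, against 343, 329 and 377 RPM in neuron cells. Astrocyte and microglia libraries did not overlap between fractions, whereas neuron sEV replicate 2 lay within the range of the neuron cells.

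The means of intergenic reads were 1656 ± 1085 RPM in astrocyte sEVs and 287 ± 12.6 RPM in astrocyte cells, 560 ± 92.1 RPM in microglia sEVs and 248 ± 64.5 RPM in microglia cells, and 2131 ± 3031 RPM in neuron sEVs and 350 ± 24.4 RPM in neuron cells (SD, n = 3 each). Averaged over the cell types the difference was 1154 RPM (exact two-sided stratified permutation test, p = 0.00075, adjusted p = 0.0025), and within a cell type the exact permutation p was 0.1 in astrocytes, 0.1 in microglia and 0.3 in neurons. In all 6 isoforms had over 100 reads each, all in sEV libraries, and together held 5439 reads or 58.2% of all intergenic reads. With isoforms of 1 library and over 100 reads left out, a setting chosen after seeing the data, the mean difference was 167 RPM (exact permutation p = 0.001). It was then 313 RPM in astrocytes, 151 RPM in microglia and 37.5 RPM in neurons. Leaving out neuron sEV replicate 3 alone gave a mean difference of 571 RPM and 31.7 RPM within neurons, and leaving out 1 of the neuron cell libraries raised the exact permutation p of the mean difference to 0.0805 to 0.0808.

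**Figure D2:**
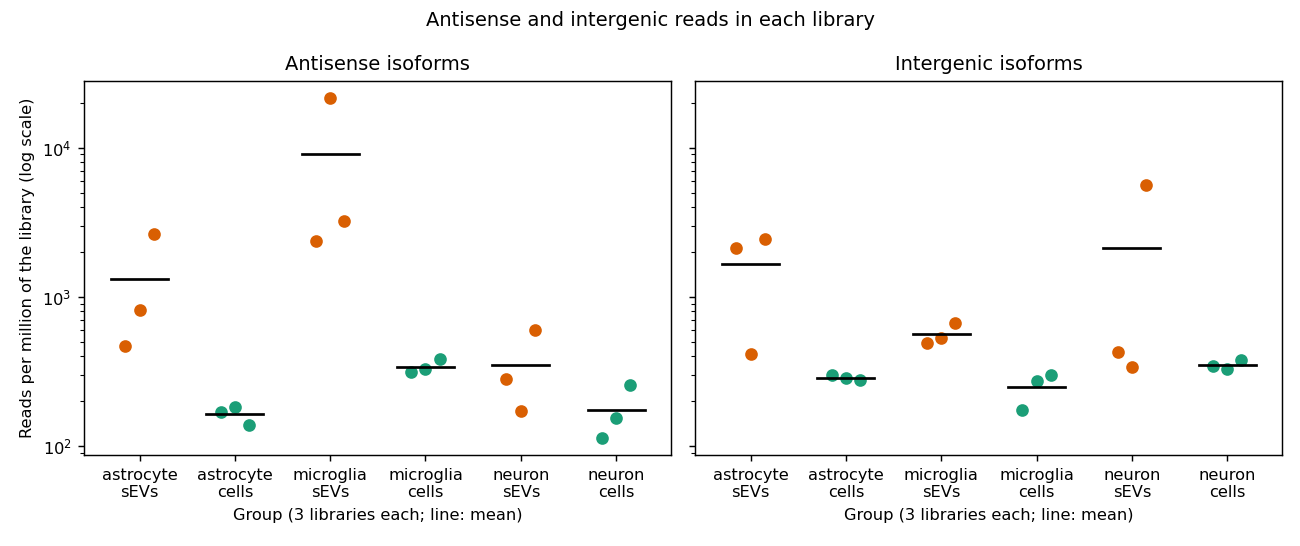
Antisense reads (left) and intergenic reads (right) in each of the 18 libraries, as RPM on a log axis, with sEV libraries in orange, cell libraries in green and a line at the mean of each group of 3. All microglia sEV libraries (2372 to 21500 RPM of antisense reads) lie above the microglia cells (313 to 380 RPM), and neuron sEV replicate 3 stands at 5631 RPM of intergenic reads.

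The number of antisense loci per library was higher in sEVs as well, which does not depend on how many reads a single locus held. At the depth of the shallowest library, sEV libraries had 48.5 ± 7.78 loci in astrocytes, 41.2 ± 8.62 in microglia and 42.4 ± 13.6 in neurons, against 28.7 ± 4.33, 18.997 ± 2.85 and 28.6 ± 6.16 in astrocyte, microglia and neuron cells (SD, n = 3 each). The mean difference was 18.6 loci (exact two-sided stratified permutation test, p = 0.0005, adjusted p = 0.0025). The fractions did not overlap in astrocytes or microglia. Neuron sEV replicate 2, with 28.3 antisense loci, lay within the range of neuron cells (23.2 to 35.3). For intergenic loci the numbers were 66.6 ± 18.7, 38.1 ± 8.40 and 66.4 ± 7.88 in astrocyte, microglia and neuron sEVs, against 54.7 ± 3.25, 23.4 ± 6.64 and 54.5 ± 7.14 in astrocyte, microglia and neuron cells. That difference was 12.8 loci (p = 0.0085 by the same exact permutation test, adjusted p = 0.0213). Astrocyte sEV replicate 2, with 48.8 intergenic loci, lay below every astrocyte cell library (51.1 to 57.4). The neuron fractions overlapped as well, and those of microglia did not. Microglia had the lowest mean of the 3 cell types in both fractions and both categories, although for antisense loci in sEVs it lay within the spread of the others.

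Single loci dominated the antisense reads of some groups and not of others. The locus opposite Cep85 held 82.7% of the antisense reads of microglia sEVs and 50.8% of those of microglia cells. The locus opposite Camk2b held 68.8% of those of astrocyte sEVs. In neuron sEVs the leading locus was again that opposite Cep85, with 24.9%. In astrocyte cells and neuron cells no locus exceeded 12.3% and 9.29%, which the loci opposite Gm13710 and Gm48603 held. Over all libraries the 2 loci opposite Cep85 and Camk2b held 81.6% of the antisense reads.

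Single libraries dominated too. Microglia sEV replicate 2 held 11337 of the 14559 antisense reads of its group (77.9%), and 10406 of them, or 91.8% (exact 95% interval 91.3% to 92.3%), came from the Cep85 antisense locus. Astrocyte sEV replicate 3 held 69.7% of its group's antisense reads, and the Camk2b antisense locus made up 86.1% of the library's (84.3% to 87.8%). In cell libraries outside microglia the leading antisense locus held 9.41% to 19.4% of a library's antisense reads.

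**Figure D3:**
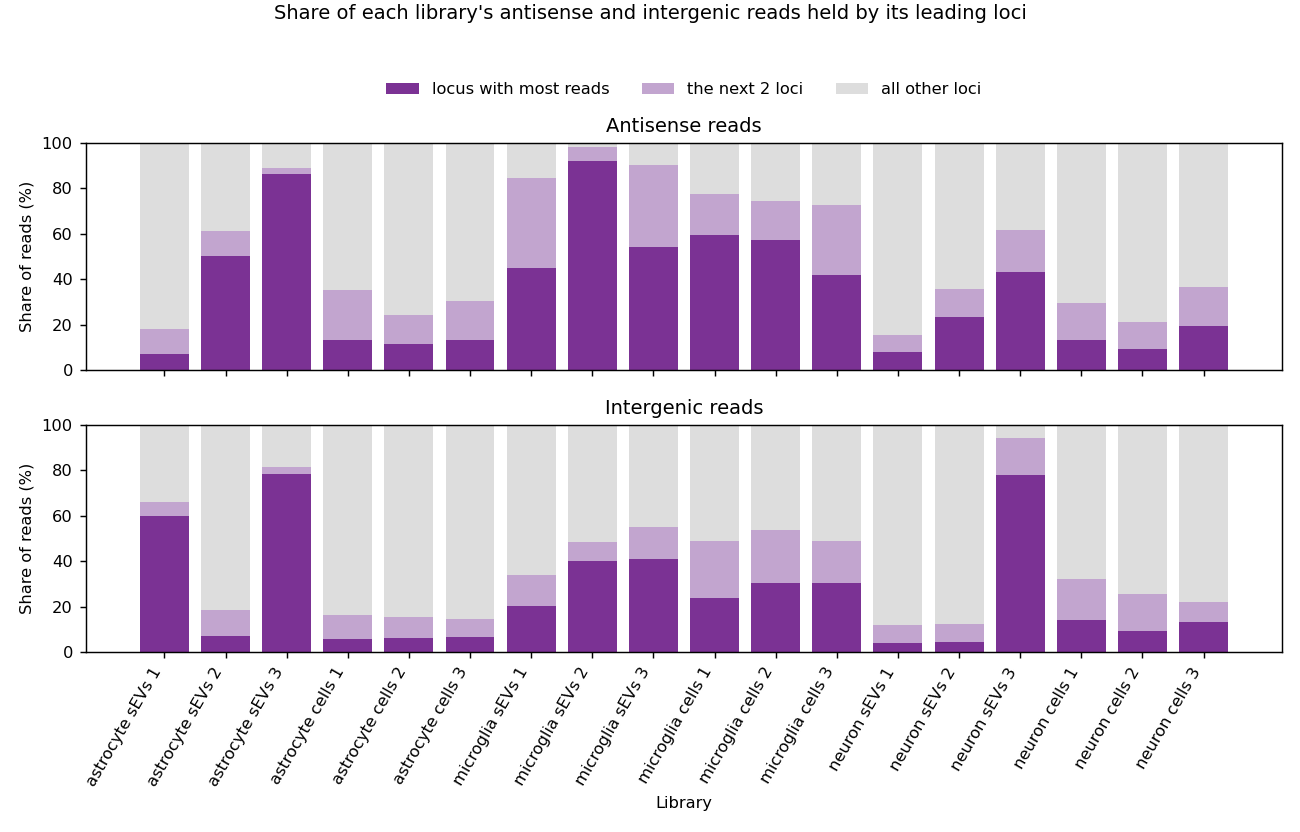
Share, in percent, of each library's antisense reads (top) and intergenic reads (bottom) held by its locus with most reads (dark), the next 2 loci (mid) and all others (grey). The leading antisense locus holds 91.8% in microglia sEV replicate 2 and 86.1% in astrocyte sEV replicate 3, and the leading intergenic locus 77.8% in neuron sEV replicate 3.

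Among intergenic isoforms dominance went with single sEV libraries. In neuron sEV replicate 3 the isoform labelled novelGene_2104 had 2714 reads, or 77.8% of the intergenic reads of that library (exact 95% interval 76.4% to 79.2%), and novelGene_1342 had 527 reads. That library held 88.3% of the intergenic reads of neuron sEVs. In astrocyte sEVs novelGene_1366 had 1130 reads in replicate 3, or 78.3% of its library (76.1% to 80.4%), and novelGene_358 had 779 reads in replicate 1, or 59.6% (56.9% to 62.3%).

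Dominance was weaker in the remaining libraries. In microglia sEVs the leaders were novelGene_308 with 177 reads in replicate 3 (40.9% of its library) and novelGene_326 with 112 reads in replicate 2 (40.1%). Among cell libraries those of microglia had the highest leading shares, with novelGene_563 at 62 reads in replicate 3 (30.5%) and novelGene_485 at 43 reads in replicate 2 (30.3%). Leaders of astrocyte cells (novelGene_1448 and novelGene_622) had 12 and 10 reads, and those of neuron cells (novelGene_6657 and novelGene_6690) had 26 reads each. Without its leading isoform neuron sEV replicate 3 still stood at 1250 RPM of intergenic reads, of which novelGene_1342 held 851 RPM. Treated in the same way, the other neuron sEV libraries stood at 321 and 409 RPM and neuron cells at 295 to 327 RPM. Most of the remainder in replicate 3 was thus novelGene_1342, and a broad excess cannot be read from it.

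After the filter on low counts 6 of the 412 antisense loci were tested, which held 88.3% of the antisense reads, and none of the 816 intergenic labels. These 6 loci passed because they were high in at least 1 group, so their counts of calls describe those loci alone. By edgeR's quasi-likelihood test in 1 fit of all 18 libraries, with Benjamini-Hochberg adjustment over 8184 features and a threshold of 0.05, 2 of the 6 were called in astrocytes, where 20.2% of all features were called and 8.03% were higher in sEVs. In microglia 1 was called, where 11.9% of all features were called and 2.65% were higher. In neurons 2 were called, where 31.4% of all features were called and 13.6% were higher. All of these calls were higher in sEVs, against 12.2%, 9.2% and 17.8% of all features called lower in astrocytes, microglia and neurons. Of the 6 loci, all but that opposite Gm13710 had their highest group mean in sEVs. The direction of the calls thus also describes these loci alone. The same holds for their tests among cell types, in which 45.2% of all features were called in cells and 54.6% in sEVs.

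The locus opposite Cep85, a gene for a centrosomal protein that restrains the kinase Nek2, was the largest of all. It had 508, 10406 and 1126 reads in microglia sEVs, against 81, 98 and 109 reads in microglia cells. Every microglia sEV library lay above every microglia cell library, by 42.2-fold in mean RPM (7507 ± 10595 against 178 ± 15.98). The edgeR quasi-likelihood test gave a log2 fold change of 4.87 with an adjusted p of 0.0613, which missed the threshold. Without microglia sEV replicate 2 the log2 fold change was 2.39 (adjusted p = 0.335). With astrocyte sEV replicate 3 and neuron sEV replicate 3 also left out it was 2.39 with an adjusted p of 0.0355.

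Outside microglia the Cep85 antisense locus was sparse. It had 2, 0 and 159 reads in neuron sEVs, against 0 in each neuron cell library. This was at least 15.6-fold higher with the floor of 3 reads per library, and edgeR called it (log2 fold change 8.80, adjusted p = 0.036). The call rests on 1 library, since without neuron sEV replicate 3 the adjusted p was 0.611. It was 0.0899 to 0.0964 without 1 of the neuron cell libraries. It had 0, 0 and 24 reads in astrocyte sEVs, against 0, 8 and 0 in astrocyte cells. The locus differed among the 3 cell types in cells (adjusted p = 0.0059, edgeR F test), where 45.2% of features were called, and in sEVs (adjusted p = 0.000696), where 54.6% were.

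Of the 37 isoforms at the Cep85 antisense locus, 2 held most reads, and their balance differed between microglia sEVs and microglia cells. Isoform 25974 had 314, 10189 and 790 reads in microglia sEVs, against 4, 11 and 8 in microglia cells. Isoform 25973 had 118, 109 and 167 reads in microglia sEVs, against 63, 68 and 83 in microglia cells. Isoform 25974 thus led in all 3 sEV libraries and isoform 25973 in all 3 cell libraries.

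As shares of the locus, isoform 25974 held 76.6% ± 18.9 in microglia sEVs and 7.83% ± 3.17 in microglia cells, and isoform 25973 held 13.04% ± 11.2 in microglia sEVs and 74.4% ± 4.45 in microglia cells (SD, n = 3 each). Left without isoform 25974, the locus stood at 444 ± 62.0 RPM in microglia sEVs and 164 ± 14.9 RPM in microglia cells, a ratio of 2.71. This balance was noticed after the values were seen and was not tested. In neuron sEV replicate 3 isoform 25974 made up 157 of the 159 reads, whereas in astrocyte sEV replicate 3 all 24 reads were of isoform 25973.

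**Figure D4:**
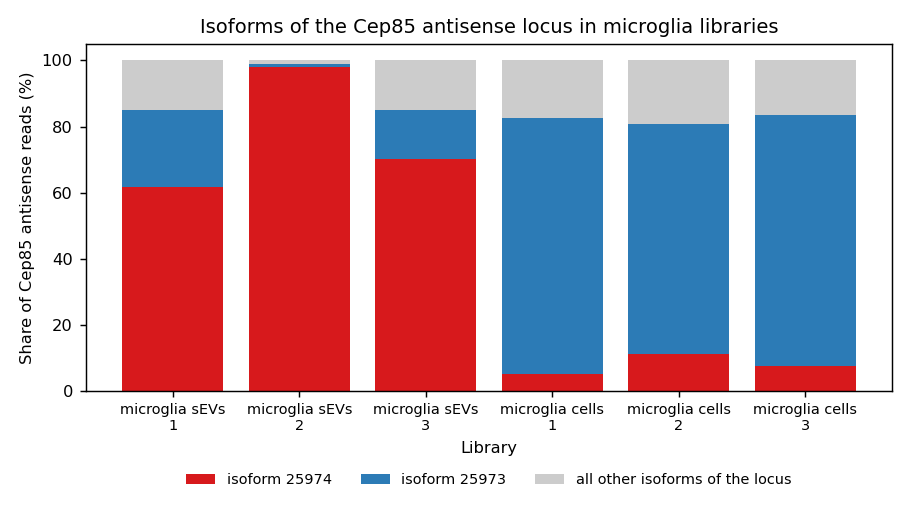
Share, in percent, of the reads of the Cep85 antisense locus held by isoform 25974 (red), isoform 25973 (blue) and all other isoforms (grey) in the 3 microglia sEV libraries and the 3 microglia cell libraries. Isoform 25974 leads in each sEV library and isoform 25973 in each cell library.

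Cep85 itself was barely read. It had 5, 0 and 2 reads in microglia sEVs and 5, 0 and 2 in microglia cells, and at most 9 reads in any library. In RefSeq both neighbours of Cep85, Sh3bgrl3 and Zpld2, lie on the same strand as Cep85, and no other gene overlaps it.

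The locus opposite Camk2b, the beta subunit of the neuronal kinase CaMKII, was seen in more libraries than any other antisense locus, 14 of 18. Its broadest isoform, 20871, was found in 11. The locus had 358, 26 and 671 reads in microglia sEVs, against 3, 5 and 9 in microglia cells, with no overlap (608 ± 504 against 9.89 ± 3.14 RPM). Of the 101 antisense loci with reads in microglia, 12 (11.9%) were higher in every sEV library than in any cell library, against 16% of all labels with reads there, so a lack of overlap is no mark of these loci. This was a 61.5-fold difference, and edgeR's quasi-likelihood test called it (log2 fold change 5.29, adjusted p = 0.0271). Nearly all of these reads belonged to isoform 20871, with 358, 19 and 671 reads in microglia sEVs. The call held without microglia sEV replicate 2 (adjusted p = 0.0195) and was lost without any other of the microglia libraries, of sEVs (0.054 and 0.0695) or of cells (0.0971 to 0.109).

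In astrocytes the Camk2b antisense locus was uneven. It had 0, 199 and 1356 reads in astrocyte sEVs, against 0, 2 and 0 in astrocyte cells. The ratio of summed RPM was 829, with a counting interval of 229 to 6852, and edgeR called it (log2 fold change 9.40, adjusted p = 0.00202). The groups overlapped at 0, and each of the sEV values came from an isoform seen in that library alone, namely 84640 in replicate 3 and 79751 in replicate 2. With isoforms of 1 library and over 100 reads left out the log2 fold change was -2.42 (adjusted p = 0.533).

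In neurons the Camk2b antisense locus had 3, 5 and 0 reads in sEVs, against 7, 3 and 6 in cells, and was not called (adjusted p = 0.834). The sense gene showed another distribution. Camk2b had 147, 15 and 12 reads in neuron sEVs and 144, 116 and 108 in neuron cells, 0 in every microglia library, and 5 reads in all in the astrocyte libraries. In sEVs reads opposite Camk2b were therefore most abundant where those of Camk2b were at 0. In cells this was not seen. The antisense locus averaged 9.95 RPM in neuron cells, 9.89 RPM in microglia cells and 1.17 RPM in astrocyte cells. Camk2b averaged 227 RPM in neuron cells, 0 in microglia cells and 2.93 RPM in astrocyte cells. A test of the difference between cell types in the sEV effect did not call the Camk2b antisense locus (edgeR interaction test, adjusted p = 0.109), nor any of the other 5, against 3.96% of all features. The loci opposite Gm11189, Mycbp2, Cnbd2 and Gm13710 had 0 reads in both fractions of some cell type. For these loci the test could not decide, as no sEV effect is defined there.

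The locus opposite Mycbp2, which encodes a large ubiquitin ligase of axon growth and synapse formation, was confined to microglia libraries in these counts. It had 94, 58 and 84 reads in microglia sEVs, against 11, 8 and 25 in microglia cells (145 ± 45.3 against 25.7 ± 10.6 RPM), and 0 in the 12 other libraries. The microglia groups did not overlap and differed by 5.63-fold, yet edgeR did not call the difference (log2 fold change 1.85, adjusted p = 0.102). DESeq2 did (log2 fold change 1.90, adjusted p = 0.0413). The locus differed among cell types in cells (adjusted p = 0.000189, edgeR) and in sEVs (adjusted p = 2.82e-05), where 45.2% and 54.6% of all features were called. It passed the filter through its microglia counts alone, so these tests restate where it was high.

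Isoform 39090 was found in all 6 microglia libraries, with 73, 45 and 42 reads in sEVs and 11, 6 and 25 in cells. Mycbp2 itself was read in every group. It had 0, 22 and 26 reads in microglia sEVs, against 0, 9 and 4 in microglia cells, and 43 to 99 reads in neuron cells.

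The locus opposite Cnbd2, a gene for a cyclic nucleotide-binding domain protein, also had most of its reads in microglia. It had 0, 657 and 2 reads in microglia sEVs, against 13, 21 and 55 in microglia cells, so that 1 sEV library stood far above and the others below the cells. The difference was not called (edgeR, log2 fold change 2.48, adjusted p = 0.40). The locus differed among cell types in sEVs (adjusted p = 0.00892, edgeR), but without microglia sEV replicate 2 the adjusted p was 0.0884 and without the 3 libraries highest in antisense reads 0.327. In cells its adjusted p was 0.0578. Cnbd2 is overlapped by Scand1, a zinc finger-related gene, in RefSeq, so the label names 1 of the genes at this place.

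The locus opposite Gm11189, an annotated pseudogene that lies between Fstl4 and Hspa4, was read in every library of astrocyte and neuron sEVs. It had 21, 32 and 21 reads in astrocyte sEVs, against 0 in each astrocyte cell library. It had 15, 21 and 49 reads in neuron sEVs, against 0 in each neuron cell library, and 0 in the 6 microglia libraries. With a floor of 3 reads per library this was at least 9.001-fold higher in astrocyte sEVs and at least 8.48-fold higher in neuron sEVs.

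The Gm11189 antisense locus was called in both by edgeR's quasi-likelihood test (adjusted p = 0.00408 in astrocytes and 0.00241 in neurons). It remained below the threshold without any 1 of the libraries, with adjusted p of at most 0.0172 and 0.0106. Its reads came from 6 isoforms, the broadest of which, 84735, was found in 4 libraries. Gm11189 had 0 reads in all 18 libraries.

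The locus opposite the long non-coding RNA Gm13710 had the opposite direction. It had 0, 0 and 3 reads in astrocyte sEVs, against 12, 12 and 12 in astrocyte cells, all of 1 isoform (1.68 ± 2.91 against 20.0 ± 1.83 RPM). The groups touched at no value, as for 16.7% of all labels with reads in astrocytes in this direction, and edgeR did not call the difference (log2 fold change -3.34, adjusted p = 0.160). It was called among cell types in cells (adjusted p = 0.0337), and DESeq2 gave 0.266 there. That call was lost without astrocyte cell replicate 3, microglia cell replicate 1 or 3, or any neuron cell library (adjusted p of 0.0681 to 0.0904), and with a filter of 10 or more reads in all (adjusted p = 0.0724). Without astrocyte cell replicate 1 or 2 the locus did not pass the filter and was not tested.

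**Figure D5:**
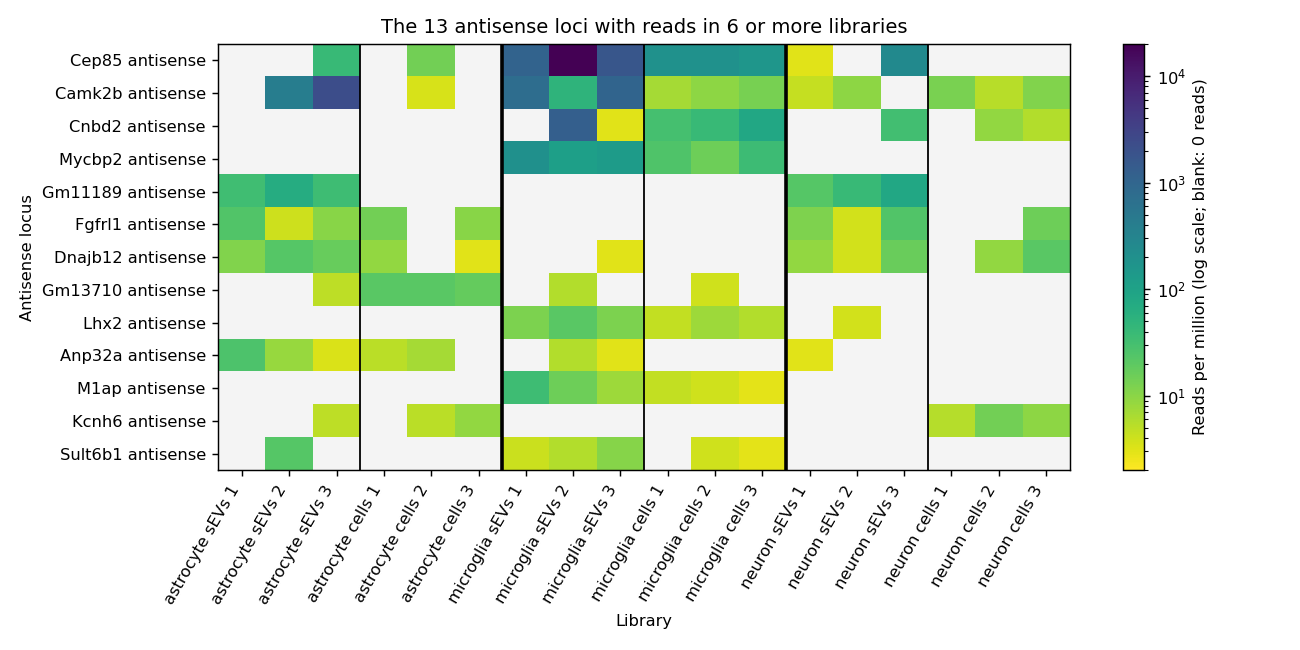
RPM, on a log colour scale, of the 13 antisense loci with reads in 6 or more libraries (rows) in the 18 libraries (columns, sEVs left of cells within each cell type; blank means 0 reads). The Mycbp2 and M1ap antisense loci appear in all 6 microglia libraries and no other, and the Gm11189 antisense locus in the sEVs of astrocytes and neurons.

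Several smaller loci recurred within microglia, and none of them passed the filter for testing. The locus opposite Hdc, the gene of histidine decarboxylase, which makes histamine, had 10, 20 and 11 reads in microglia sEVs, against 2, 2 and 0 in microglia cells. The locus opposite Lhx2, a LIM homeobox factor of forebrain development, had 6, 11 and 8 reads in microglia sEVs, against 2, 4 and 4 in microglia cells. The locus opposite M1ap, a meiosis gene, had 17, 8 and 5 reads in microglia sEVs, against 2, 2 and 2 in microglia cells. In each of these 3 loci, set out after their values were seen, every microglia sEV library lay above every microglia cell library, as did 16% of all labels with reads in microglia.

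Further loci present in all microglia sEV libraries were those opposite Ccl3, Stip1, Sult6b1, Tep1, Adcy3 and Gm15206. The locus opposite Ccl3, a chemokine gene of activated microglia, had 3, 11 and 4 reads in microglia sEVs, against 2, 0 and 2 in microglia cells. The locus opposite Stip1, a co-chaperone that links Hsp70 and Hsp90, had 11, 2 and 9 reads in microglia sEVs, against 0, 0 and 2 in microglia cells. The locus opposite Sult6b1, a sulfotransferase gene, had 2, 3 and 7 reads in microglia sEVs, against 0, 2 and 2 in microglia cells, and also 11 reads in astrocyte sEV replicate 2. The loci opposite Tep1, Adcy3 and Gm15206 had 16, 10 and 13 reads in microglia sEVs and none elsewhere, where a 0 allows up to 3 reads per library.

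The loci opposite Dnajb12 and Fgfrl1 recurred in both astrocytes and neurons, whereas that opposite Gm45114 had 2, 3 and 2 reads in neuron sEVs and none elsewhere. The locus opposite Anp32a, a gene for an acidic nuclear phosphoprotein, had 16, 4 and 2 reads in astrocyte sEVs, against 3, 4 and 0 in astrocyte cells. The locus opposite Dnajb12, a chaperone of the endoplasmic reticulum membrane, was found in 11 libraries. It had 7, 11 and 10 reads in astrocyte sEVs, against 5, 0 and 2 in astrocyte cells, and 6, 2 and 10 reads in neuron sEVs, against 0, 5 and 11 in neuron cells. The astrocyte groups did not overlap, as for 10.8% of all labels with reads in astrocytes in this direction, and the neuron groups did. The locus opposite Fgfrl1, a receptor of the fibroblast growth factor family that lacks the kinase domain, had 15, 2 and 6 reads in astrocyte sEVs, against 8, 0 and 7 in astrocyte cells, and 8, 2 and 15 in neuron sEVs, against 0, 0 and 8 in neuron cells.

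Some loci named for their high counts in astrocyte or neuron cells had few reads in sEVs. The locus opposite Rnf157, a ubiquitin ligase of neurons, had 0, 2 and 0 reads in astrocyte sEVs, against 9, 3 and 9 in astrocyte cells. The locus opposite H2-M10.2, a non-classical histocompatibility gene, had 0, 0 and 2 reads in neuron sEVs, against 2, 5 and 12 in neuron cells. The locus opposite Kcnh6, a voltage-gated potassium channel gene picked after its values were seen, had 0 reads in neuron sEVs, against 3, 8 and 5 in neuron cells. The locus opposite Gm48603 had 26 reads in neuron cells, all in replicate 3, and 0 in neuron sEVs.

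At the median the sense genes of antisense loci had fewer reads than other labels. For 290 of the 412 loci (70.4%) the sense gene had reads in the table, with a median of 35 reads over all libraries, against 76 for all other labels. Of 649 pairs of locus and library, chosen for having antisense reads, 297 (45.8%) also had sense reads. Antisense reads outnumbered sense reads in 388 pairs (59.8%). These include every pair without sense reads, so the choice of pairs largely set this share. RefSeq (assembly GRCm38.p6) listed 370 of the sense genes, of which 323 were protein-coding, 25 long non-coding RNAs, 19 pseudogenes and 3 transcribed pseudogenes. Another RefSeq gene overlapped 60.7% of the protein-coding ones, against 47.1% of the 13714 protein-coding genes detected. That assembly differs from the one the reads were mapped to, so it served for names and neighbours and no positions are given.

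Annotated opposite-strand genes, those with an os symbol, were set beside the unannotated antisense loci. The list took os symbols whose remaining symbol was also in the table, so its 54 genes were present by construction, and 8 were tested. Whether these genes code for protein was not examined. By edgeR's test 2 were higher and 1 lower in astrocyte sEVs, 1 higher and 1 lower in microglia sEVs, and 3 higher and 1 lower in neuron sEVs. Of all features 8.03% were higher and 12.2% lower in astrocyte sEVs, 2.65% and 9.2% in microglia sEVs, and 13.6% and 17.8% in neuron sEVs. The median log2 fold change of the list was 0.71 in astrocytes, 1.17 in microglia and 0.78 in neurons, against 0, 0 and -0.10 for all tested features in these cell types.

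The members that passed in every cell type ran in opposite directions. Oip5os1, known as Cyrano, a conserved long non-coding RNA that triggers decay of the microRNA miR-7, averaged 428 ± 132 RPM in astrocyte sEVs and 61.0 ± 13.3 in astrocyte cells. It averaged 127 ± 32.1 RPM in microglia sEVs and 16.7 ± 3.70 in microglia cells, and 201 ± 11.6 in neuron sEVs and 77.9 ± 29.3 in neuron cells. It was called higher in each (edgeR, adjusted p = 0.00116 or less). Brip1os was called lower in each, at 3.93 ± 6.80 RPM in astrocyte sEVs and 54.9 ± 6.86 in astrocyte cells, 0 in microglia sEVs and 71.6 ± 21.9 in microglia cells, and 2.50 ± 4.32 in neuron sEVs and 39.7 ± 16.95 in neuron cells (adjusted p = 0.0304 or less).

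Of 32 listed names of known long non-coding RNAs, with Oip5os1 entered also as Cyrano, 27 were in the table and 16 tested. Of these, 2 were higher and 2 lower in astrocyte sEVs, 1 higher and 1 lower in microglia sEVs, and 5 higher and 3 lower in neuron sEVs, to be read against the same shares of all features. Oip5os1 was on both lists and was the 1 higher call of each in microglia sEVs, so the lists are not independent. Malat1, a transcript of nuclear speckles, was lower in the sEVs of every cell type, at 2270 ± 1595 RPM in astrocyte sEVs and 15750 ± 1776 in astrocyte cells, 41.2 ± 21.3 in microglia sEVs and 3004 ± 1447 in microglia cells, and 317 ± 114 in neuron sEVs and 11329 ± 3998 in neuron cells (edgeR, adjusted p = 0.00052 or less). Norad, a cytoplasmic RNA that binds Pumilio proteins, was higher in astrocyte sEVs (401 ± 64.5 against 72.5 ± 4.30 RPM) and in neuron sEVs (793 ± 65.5 against 307 ± 19.6 RPM), with an adjusted p of 0.0007 or less by edgeR's test.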

How the data were processed

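For each isoform the authors deposited unnormalised read counts in 18 libraries, a gene label and a structural category. The submitters' processing notes name minimap2 and GRCm39. The sources used here do not give the isoform caller, its filters or the annotation. Antisense and intergenic isoforms were taken by category and summed per label. All were multi-exon. Differences in counts were tested over all labels by edgeR 4.0.16 under R 4.3.3 (filterByExpr by group, TMM, quasi-likelihood F tests, a mean per group), which was tested on simulated data, with DESeq2 1.42.0 as an alternative. RPM is reads scaled to a library total of 1e+06. Category levels and loci per library, rarefied to the shallowest library's depth, were compared by exact permutation (scipy 1.17.1). Intervals are exact binomial (Clopper-Pearson).

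The loci named were the 5 with most reads per category, the 2 highest in each group, any with over 50% of a group's reads, those called with no overlap and a mean count of 10 or more (4 per direction), the 4 smallest adjusted p-values of each F test, and the 2 in most libraries. The smaller recurrent loci and the examples from the gene lists were picked after their values were seen. Members, lists and rule were chosen with earlier results of these data known. Sequences of the members were not used here.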

Additional observations from a re-analysis of the deposited data

How the results depend on the processing

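Deviations of same-numbered sEV and cell libraries correlated at -0.081 to 0.079 over 9 pairs. This gave no sign of pairing by replicate number, but cannot settle whether such libraries shared a culture. With a replicate block 1 antisense locus was called in neurons instead of 2, as the Cep85 antisense locus had an adjusted p of 0.0555 (edgeR). The Cnbd2 antisense locus was then not called among sEVs (0.0534) and was called among cells (0.04). The other counts of calls stayed within 1.5 times. Counts of antisense loci called in microglia (1) were 2 with DESeq2, 3 without TMM and 3 with only the groups compared, 2 without the 3 libraries highest in these reads and 2 without the libraries rich in Gm42047 (the last 2 settings were added after seeing the data), and 0 to 2 without any 1 library. The neuron count (2) was 1 with only the groups compared, 1 without the 3 highest libraries, and 1 to 2 without any 1 library. The astrocyte count (2) was 1 with only the groups compared and 1 without isoforms of 1 library with over 100 reads, where the Camk2b antisense locus turned to -2.42 on the log2 scale because its reads came from such isoforms. With a filter of 10 or more reads in all, 61 antisense and 91 intergenic labels were tested. The antisense count among cell types in sEVs was then 10 of 61 instead of 5 of 6. Of the 91 intergenic labels 1 was called in astrocytes, 2 in neurons, 1 among cells and 6 among sEVs. Each of these intergenic calls rested on an isoform of 1 library. The share of all features called under this filter is not given here, so these counts cannot be read against it. Without any 1 library the mean antisense difference ran from 1256 to 4444 RPM and the mean intergenic one from 571 to 1454 RPM. Both missed the threshold in 3 such cases, without a microglia cell or a neuron cell library, with exact permutation p up to 0.1845 and 0.0808. The differences in loci per library kept direction and side of the threshold under every alternative run. The cause of the other changes was not tested. Of the 412 antisense loci 238 held 2 or 3 reads in all, 305 had reads in 1 library, and 6 passed the filter.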
